A study of Mus musculus with 18 samples.

Results

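Kit, Elf5, Ehf, Xbp1, Cd14, Stat5a, Sox10 and Cebpb are 8 genes that mark or regulate the luminal progenitor and alveolar cells of the mammary gland. They were taken by gene symbol from a set named with earlier results of these data known, and each was measured by 1 array feature, so 8 of the 16887 genes measured are described here. The samples were 18 primary mammary tumours of mice, and every title carries FVB, a mouse strain, and MMTV, the promoter of a mammary tumour virus that directs a transgene to mammary epithelium. A tumour was labelled Wnt1 (n = 6) or Wnt1 with iFGFR1, iFGFR2 or iR2 (n = 4 each), so Wnt1, a secreted Wnt ligand, is common to all groups, and the title of the series sets the question of how FGF receptor and Wnt-1 signals cooperate. The labels expand neither iFGFR1, iFGFR2 nor iR2, and give no age, no time and no agent given to the mice. iR2 is kept as a group of its own, as labelled, and iFGFR1, iFGFR2 and iR2 are called the receptor groups. Tumour RNA labelled with Cy5 was hybridised beside whole-mouse RNA labelled with Cy3, and every value is read as the log2 ratio of tumour to whole mouse. The labels do not state whether the arrays stand for different animals, so the spread within a group may be technical in part.

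The luminal layer of the mammary gland holds hormone-sensing cells and a progenitor population from which the milk-secreting alveolar cells arise. KIT, a receptor tyrosine kinase for stem cell factor, and CD14, a co-receptor for bacterial lipopolysaccharide, mark luminal progenitors at the cell surface. Prolactin acts through STAT5A, and ELF5, an ETS transcription factor, is needed with it for alveolar development in mice. EHF is an epithelial relative of ELF5, CEBPB is a bZIP factor required for ductal and alveolar growth in mice, XBP1 is the transcription factor that expands the secretory apparatus, and SOX10 is a transcription factor of neural crest and of some mammary epithelial cells.

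The tumours carried epithelial RNA. The luminal keratin Krt18 had a mean log2 ratio of 3.22 over the 18 arrays and the epithelial adhesion gene Epcam 2.46, and the basal keratin Krt14 stood at 1.13, whereas the intestinal gene Fabp2 stood at -6.20 and the liver gene Fgb at -5.25. The direction of the ratio is taken from the dyes in the labels. A single array stood apart from its group. On Wnt1 replicate 3 the mean of 19 milk and alveolar genes was 1.98, against -0.73 to -0.58 on the other 5 Wnt1 arrays, and 13 of the 19 had their highest value of all 18 arrays there, against 1058 of 16887 genes (6.27%). The caseins Csn2 and Csn1s1 stood at 6.71 and 7.56 on it, and at most at 1.83 and 3.08 elsewhere. The fibroblast list was also higher there (-1.13, against -2.29 to -1.88), and its mean correlation with its own group was 0.747, against 0.809 to 0.844 for the other 5. Results of the 8 genes against Wnt1 are therefore given with and without it, as are the counts of the pathway, milk and luminal gene lists where they change. The members themselves were not spared on that array, where Elf5 (5.44) and Cd14 (3.91) had their highest values of all 18. Leaving it out therefore raises their differences from Wnt1, and calls made without it are not independent of that choice.

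All 8 genes lay above the whole-mouse reference in every group mean. Over 18 arrays the mean log2 ratio was 3.54 for Ehf, 3.51 for Elf5 and 3.37 for Kit, which ranked 13, 14 and 15 of 16887 genes. Sox10 followed at 2.77 (rank 39) and Cd14 at 2.49 (rank 63), and these 5 were among the genes most enriched in the tumours over whole mouse. Cebpb stood at 1.68 (rank 192), Xbp1 at 1.65 (rank 204) and Stat5a at 1.13 (rank 531). A ratio measures enrichment over the pool and does not order genes by their amount of RNA, and in tumour tissue fewer cells of a type and less RNA per cell cannot be told apart. Kit, Elf5, Xbp1, Cd14, Sox10 and Cebpb were above the reference on 18 of 18 arrays, and Ehf and Stat5a on 17. In the Wnt1 group the mean ± SD ran from 0.87 ± 0.60 for Stat5a to 3.01 ± 1.77 for Ehf (n = 6), and the SD of 1.77 is wider than the gap between Ehf and Elf5 (2.74 ± 1.37) or Kit (2.90 ± 0.30). In iFGFR2 the order at the top was Elf5 (3.96 ± 0.61), Ehf (3.96 ± 0.57) and Kit (3.89 ± 0.21, n = 4), whose gaps were smaller than their spread. Over the other 5 Wnt1 arrays the mean was 2.20 ± 0.42 for Elf5, 1.34 ± 0.39 for Cd14, 0.75 ± 0.31 for Xbp1 and 0.66 ± 0.38 for Stat5a (n = 5), all still above the reference.

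**Figure D1:**
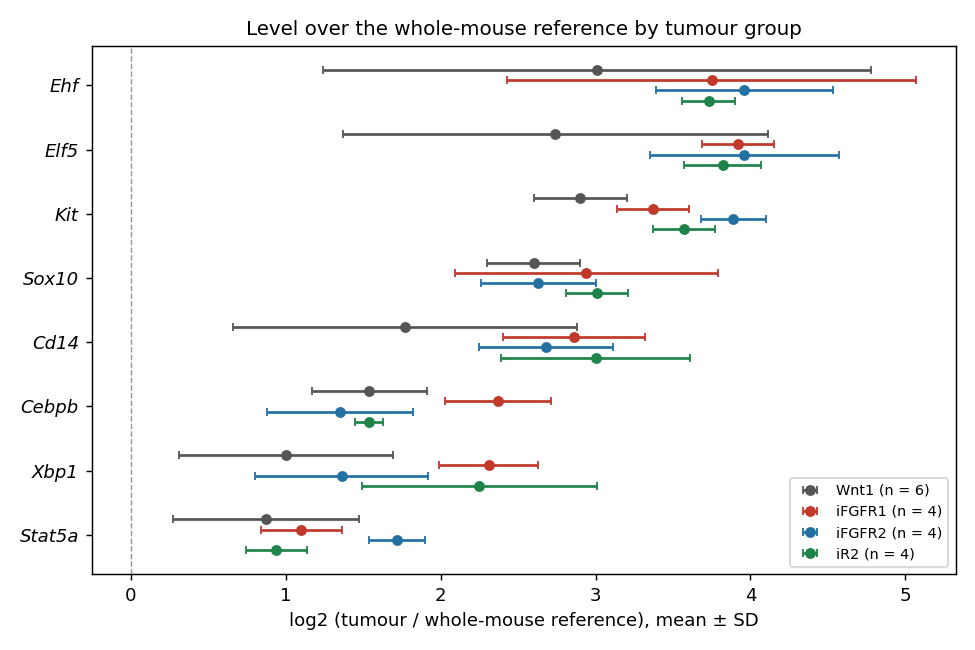
Mean log2 ratio of tumour to whole-mouse reference for each of the 8 genes (x axis, ± SD), by tumour group in colour (Wnt1 n = 6, the others n = 4). All 32 group means lie above 0, the dashed line of equal signal, and Ehf, Elf5 and Kit lie farthest to the right.

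Against Wnt1, Kit rose in iFGFR2 and iR2, Xbp1 in iFGFR1 and iR2, and Cebpb in iFGFR1 alone among the 3 comparisons. By limma's test over all genes 2 of 8 members passed in iFGFR1 and both were higher, where 8.38% of all genes were called higher and 7.06% lower. In iFGFR2 1 of 8 passed and was higher (1.97% of all genes higher, 1.46% lower), and in iR2 2 of 8 passed and were higher (3.91% higher, 3.19% lower). None fell. Of 8 members, 8, 7 and 7 had a difference above 0 in iFGFR1, iFGFR2 and iR2, with medians of 0.79, 0.89 and 0.69 on the log2 scale against 0.02, 0.01 and -0.05 over all genes. The 3 comparisons share the 6 Wnt1 arrays, so their values are not independent. Without Wnt1 replicate 3 the members called higher were 4 of 8 in each comparison, where 9.95%, 4.70% and 5.68% of all genes were called higher in iFGFR1, iFGFR2 and iR2. Those members included Elf5 and Cd14 in each comparison, and both were highest on the array left out. An F test over the 4 groups called 3 of 8 members (Kit, Cebpb and Xbp1) and 19.6% of all genes, and 6 of 8 and 24.6% without that array.

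**Figure D2:**
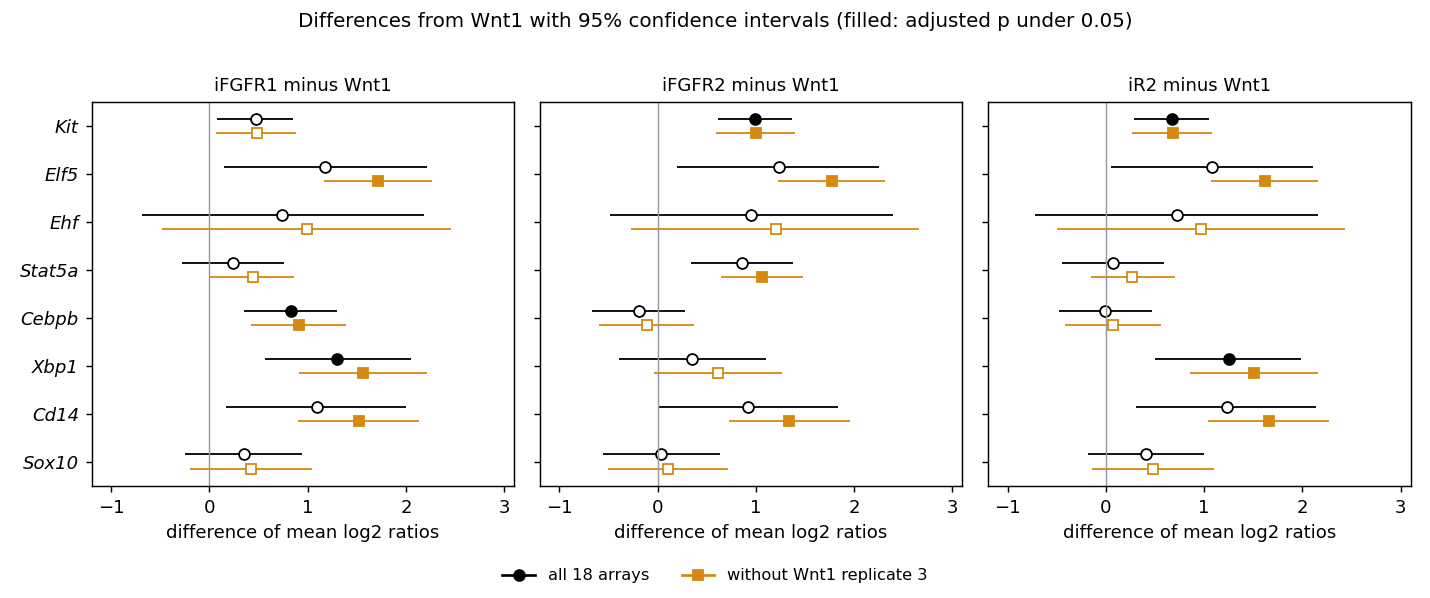
Difference of mean log2 ratios from Wnt1 (x axis) for each gene in iFGFR1, iFGFR2 and iR2, with 95% confidence intervals from limma, over all 18 arrays (circles) and without Wnt1 replicate 3 (squares); filled symbols have an adjusted p under 0.05. Elf5 and Cd14 are filled in all 3 panels only without that array, and Kit hardly moves.

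The starts of the genes are shown because Kit, Elf5, Xbp1 and Cebpb carry the differences described here. They are the 250 bases before the transcription start in RefSeq (build GRCm38.p6, + strand), where 5 of the 8 genes matched the promoter table. Letters were searched on both strands for STAT (TTCNNNGAA), ETS (AGGAAG or CGGAAG), C/EBP (TTGCNNAA), XBP1 (ACGTGG) and SOX (ACAATG) motifs, and matches, which did not overlap, are in capitals.
Kit chr5:75574737-75574986: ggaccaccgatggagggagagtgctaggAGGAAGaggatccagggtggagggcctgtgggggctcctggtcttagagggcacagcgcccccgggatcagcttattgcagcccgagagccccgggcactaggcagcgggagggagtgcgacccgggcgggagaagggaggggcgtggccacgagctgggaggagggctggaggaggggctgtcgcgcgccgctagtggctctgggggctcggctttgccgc
Elf5, upstream start, chr2:103411848-103412097: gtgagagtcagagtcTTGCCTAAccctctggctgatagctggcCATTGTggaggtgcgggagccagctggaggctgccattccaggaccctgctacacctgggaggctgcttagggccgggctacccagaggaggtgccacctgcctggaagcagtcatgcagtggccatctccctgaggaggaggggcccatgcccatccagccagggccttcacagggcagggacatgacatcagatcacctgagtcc
Elf5, downstream start, chr2:103423818-103424067: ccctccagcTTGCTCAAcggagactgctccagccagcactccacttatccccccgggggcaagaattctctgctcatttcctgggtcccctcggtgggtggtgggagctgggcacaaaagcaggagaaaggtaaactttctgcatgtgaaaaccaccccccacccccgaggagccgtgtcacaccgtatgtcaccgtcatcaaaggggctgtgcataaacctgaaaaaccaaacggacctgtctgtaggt
Xbp1 chr11:5520391-5520640: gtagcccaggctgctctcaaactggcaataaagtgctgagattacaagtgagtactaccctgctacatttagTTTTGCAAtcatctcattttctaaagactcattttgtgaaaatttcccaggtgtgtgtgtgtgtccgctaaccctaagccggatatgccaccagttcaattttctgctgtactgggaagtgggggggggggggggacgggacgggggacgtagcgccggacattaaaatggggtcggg
Cebpb chr2:167688665-167688914: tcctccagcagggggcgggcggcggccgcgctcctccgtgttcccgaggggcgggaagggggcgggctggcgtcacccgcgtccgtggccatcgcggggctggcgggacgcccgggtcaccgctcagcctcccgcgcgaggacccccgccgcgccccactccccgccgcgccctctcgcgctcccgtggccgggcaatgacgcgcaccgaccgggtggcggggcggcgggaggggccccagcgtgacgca
The Kit window held 1 AGGAAG, at -222 from the start, a motif found in 29.5% of 32817 such windows. Both Elf5 windows and the Xbp1 window held TTGCNNAA (9.57% of windows), at -235, -241 and -178 from the start, in Xbp1 on the other strand. The first Elf5 window also held ACAATG on the other strand (10.7%). The Cebpb window, 81.6% G and C, held none of these letters. The Stat5a windows, not printed here, each held AGGAAG on the other strand, at -96 and -10 from the start. Neither of the Stat5a windows held TTCNNNGAA (7.01%). A match describes letters and does not show binding.

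Kit was higher than Wnt1 in iFGFR2 and iR2 on every array. Its log2 ratios in Wnt1 ran from 2.49 to 3.33 with a median of 2.87. They were 3.67, 3.76, 4.10 and 4.03 in iFGFR2, 3.47, 3.68, 3.79 and 3.34 in iR2, and 3.56, 3.11, 3.24 and 3.56 in iFGFR1. All 4 iFGFR2 and all 4 iR2 arrays lay above every Wnt1 array, which held for 2.50% and 6.24% of all genes, and iFGFR1 overlapped Wnt1 with 2 arrays above. None of the 8 members separated iFGFR1 from Wnt1 in this way with all arrays, as 4.88% of all genes did. Kit rose by 0.99 in iFGFR2 (SE 0.18, 1.99-fold, adjusted p = 0.00846) and by 0.67 in iR2 (SE 0.18, 1.59-fold, adjusted p = 0.0322). In iFGFR1 the difference was 0.47 (95% confidence interval 0.08 to 0.85, adjusted p = 0.0908). Without Wnt1 replicate 3, where Kit stood at 2.94 near the median, these values were 1.0, 0.68 and 0.48 (adjusted p = 0.00589, 0.0293 and 0.0951). The iFGFR2 call ended where every array was scaled to a common spread (0.61, adjusted p = 0.179). The iR2 call ended without Wnt1 replicate 2, 4 or 6 or iR2 replicate 1, 2 or 3 (0.59 to 0.70, adjusted p from 0.0627 to 0.128), after quantile normalization (0.65, adjusted p = 0.102), with a trended and robust prior (0.67, adjusted p = 0.0993) and with the title number as a covariate (0.58, adjusted p = 0.543).

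Of 14 other genes of the KIT pathway measured, 1 rose and 1 fell in iFGFR1, none was called in iFGFR2, where 4 had an unadjusted p under 0.05 by limma, and 2 rose in iR2. Leaving out Wnt1 replicate 3, a further gene fell in iFGFR2 (Ptpn11, -0.59, adjusted p = 0.0495) and a further one rose in iR2 (Shc1, 0.61, adjusted p = 0.0425). Kitl, the KIT ligand, fell by 1.63 in iFGFR1 (SE 0.31, adjusted p = 0.00179, below every Wnt1 array on 3 of 4) and differed by -0.30 and 0.21 in iFGFR2 and iR2 (adjusted p = 0.628 and 0.76). Gab1, a docking protein of receptor kinases, rose by 1.11 in iR2 (SE 0.20, adjusted p = 0.00367), and the adaptor Grb2 rose by 0.88 in iFGFR1 (SE 0.22, adjusted p = 0.0117). Mast cells and melanocytes also carry KIT. The mast cell protease genes Cpa3 and Cma1 had means of -5.19 and -4.45 over the 18 arrays, and the 9 mast cell genes averaged -2.64 to -1.56 by array in Wnt1, -2.43 to -2.32 in iFGFR2 and -3.02 to -2.94 in iR2, with Cpa3 lower in iR2 by 0.96 (adjusted p = 0.0132). The tryptase gene Tpsab1 differed by 0.66, 0.36 and -0.65 and passed against Wnt1 only in iFGFR1 and only without Wnt1 replicate 3 (0.79, adjusted p = 0.0157), and Mcpt4 differed by 0.66, 0.15 and -0.86 and passed in none of these. Of 8 melanocyte genes 1 rose and none fell in iFGFR2 (Pmel, 1.31, adjusted p = 0.0365 by limma). In iR2 1 rose and none fell (Dct, 2.03, adjusted p = 0.0315). Mitf fell by 2.42 in iFGFR1 (adjusted p = 0.000998), and without Wnt1 replicate 3 also in iFGFR2 (-1.23, adjusted p = 0.0486). The part of mast cells and melanocytes in the Kit difference was not tested. Over the 18 arrays the genes most like Kit by Pearson's r were Csnk1g2 (0.88), Vcl (0.86), Maats1 (0.85) and Slc12a8 (0.84), and the least like were Msi1 and Cisd1 (-0.89 each).

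Elf5 was high in all 3 receptor groups and low on 5 of the 6 Wnt1 arrays. The Wnt1 values were 2.72, 2.06, 5.44, 2.23, 1.59 and 2.38. In iFGFR1 they were 3.92, 3.66, 4.22 and 3.87, in iFGFR2 4.64, 3.20, 4.19 and 3.83, and in iR2 3.50, 4.05, 3.98 and 3.74. The value of 5.44 on Wnt1 replicate 3 was the highest of all 18, and apart from it no Wnt1 array reached the lowest receptor array. Over all arrays the differences from Wnt1 were 1.18, 1.23 and 1.08 in iFGFR1, iFGFR2 and iR2 (SE 0.49 each, adjusted p = 0.114, 0.158 and 0.192) and none passed. Without Wnt1 replicate 3 Elf5 rose by 1.72, 1.77 and 1.62 (SE 0.26 each; 3.29-fold, 3.40-fold and 3.07-fold; adjusted p = 0.000177, 0.00123 and 0.000927). Then 4 of 4 arrays of each receptor group lay above all Wnt1 arrays, as did 8.18%, 5.24% and 10.2% of all genes. With all 18 arrays, quantile normalization called Elf5 in iFGFR1 alone against Wnt1 (1.19, adjusted p = 0.0456). With limma's array weights, which gave Wnt1 replicate 3 a weight of 0.444, Elf5 was also called in all 3 comparisons. Those weights were lower still for iFGFR2 replicate 1 (0.311) and iFGFR1 replicate 4 (0.417), and reached 5.26 for iR2 replicate 1. With them 5207 of all genes were called in iR2 against Wnt1, against 1199 without. Between receptor groups Elf5 differed by at most 0.15 (iR2 minus iFGFR2, -0.15, interval -1.27 to 0.98).

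Ehf was high on nearly every array and was the most variable of the 8 in Wnt1 and iFGFR1 (SD 1.77 and 1.32), though not in iFGFR2 (0.57) or iR2 (0.17). In Wnt1 it stood at 4.13, 2.67, 4.24, 3.03, 4.31 and -0.33. In iFGFR1 it stood at 4.20, 1.79, 4.40 and 4.61, in iFGFR2 at 4.26, 3.13, 4.05 and 4.40, and in iR2 at 3.56, 3.96, 3.69 and 3.70. The groups overlapped, and the low values were Wnt1 replicate 6 and iFGFR1 replicate 2. The differences from Wnt1 were 0.74, 0.95 and 0.72 (SE 0.69 each, adjusted p = 0.504, 0.46 and 0.587), and intervals such as -0.49 to 2.39 in iFGFR2 span changes in both directions. Leaving out Wnt1 replicate 3 gave 0.99, 1.20 and 0.97 (adjusted p = 0.355, 0.31 and 0.416), whereas leaving out Wnt1 replicate 6 gave 0.08, 0.28 and 0.05 (adjusted p = 0.939, 0.801 and 0.968), and without iFGFR1 replicate 2 the iFGFR1 difference was 1.40 (adjusted p = 0.168). Elf5 and Ehf lie on the same chromosome with no protein-coding gene between them in the RefSeq table, and over 18 arrays they correlated at r = 0.43 (rho = 0.50, permutation p = 0.0792 and 0.0379, adjusted over 28 pairs 0.139 and 0.143). Their r was 0.58 without the 2 arrays farthest in Elf5 and 0.31 after group means were taken out. Genes most like Elf5 were Tmc5 (r = 0.90), Tjp3 (0.89), Taf7 and Ncald (0.88 each), with Thoc7 and Prkx (-0.88 each) the least like. For Ehf they were Cdk5 (0.80), Aldoc (0.78), Gstt1 and Top2a (0.76 each), with Igsf11 (-0.78) and Zbtb44 (-0.77) at the other end.

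Among 18 other ETS factors 3 rose and 1 fell in iFGFR1, 1 rose in iFGFR2 and 2 rose in iR2, and without Wnt1 replicate 3 the counts were 3 and 2, 2 and 0, and 2 and 1. Spdef, an ETS factor of secretory epithelium, rose by 2.14, 2.83 and 2.35 in iFGFR1, iFGFR2 and iR2 (SE 0.35 each, adjusted p = 0.000435, 0.000419 and 0.00132) on 4 of 4 arrays of each. Etv1 rose by 2.04 in iFGFR1 (SE 0.33, adjusted p = 0.000456), and Gabpa rose by 1.63 there and by 1.22 in iR2 (adjusted p = 0.000855 and 0.0159). Elf3, the other epithelial relative of Elf5, differed by -0.86, -1.11 and 0.12 and passed in none (adjusted p = 0.162, 0.121 and 0.901).

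Stat5a was highest in iFGFR2. In Wnt1 it stood at 0.77, 0.86, 1.87, 0.93, 0.77 and -0.01. In iFGFR2 it stood at 1.95, 1.50, 1.72 and 1.72, in iFGFR1 at 1.39, 1.23, 1.0 and 0.79, and in iR2 at 0.93, 1.19, 0.93 and 0.71. The 4 iFGFR2 arrays lay above 5 of the 6 Wnt1 arrays and above every iFGFR1 and iR2 array. The difference of iFGFR2 from Wnt1 was 0.86 (SE 0.25, 1.81-fold, adjusted p = 0.0589) and did not pass. Without Wnt1 replicate 3 Stat5a rose by 1.06 in iFGFR2 (SE 0.20, 2.08-fold, adjusted p = 0.00558), and without iFGFR2 replicate 2 by 0.93 (adjusted p = 0.0424). It was also called there with array weights (0.96, adjusted p = 0.0302) and with the title number as a covariate (1.15, adjusted p = 0.0208). In iFGFR1 and iR2 the differences were 0.24 and 0.07 (adjusted p = 0.561 and 0.904), and 0.44 and 0.27 without that Wnt1 array (adjusted p = 0.144 and 0.425). Ldhb (r = 0.87), Rab40b (0.86), Anpep and Vill (0.82 each) were the genes most like Stat5a, and Perp (-0.85) and Usp43 (-0.83) the least.

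Of 19 other genes of the prolactin and STAT5 pathway, 2 rose and 1 fell in iFGFR1, 1 rose in iFGFR2 and 2 rose in iR2, and without Wnt1 replicate 3 a further gene fell in iFGFR1. Socs2, a feedback inhibitor induced by STAT5, rose by 1.91 in iFGFR1 and 1.43 in iFGFR2 (SE 0.27 each, adjusted p = 0.000121 and 0.00897), and its difference of 0.60 in iR2 did not pass (adjusted p = 0.187). The repressor gene Bcl6 rose by 0.78 in iFGFR1 and 1.18 in iR2 (adjusted p = 0.0428 and 0.0108), and the growth hormone receptor gene Ghr fell by 0.82 in iFGFR1 (adjusted p = 0.0204). Stat5b, the close relative of Stat5a, had group means from -0.20 to 0.03, near the reference. Probes of Stat5a and Stat5b can share sequence, and their cross-hybridization was not tested.

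Milk genes are compared with a Wnt1 group that holds the array with extreme milk values. With all arrays 3 of 19 milk and alveolar genes rose and 3 fell in iFGFR1, and in iFGFR2 and iR2 none rose and 1 fell, with median differences of -0.18, -0.06 and -0.25. Over the other 5 Wnt1 arrays, 4 rose and 3 fell in iFGFR1, 3 rose and 2 fell in iFGFR2, and 2 rose and 2 fell in iR2, with medians of 0.43, 0.07 and 0.04, so the sign of each median turned. Csn3, the kappa-casein gene, stood at 4.59 in Wnt1 and 7.12 in iFGFR1, a rise of 2.53 (SE 0.46, adjusted p = 0.00126), and its differences of 1.29 and 1.27 in iFGFR2 and iR2 passed only without Wnt1 replicate 3 (1.70 and 1.69, adjusted p = 0.00751 and 0.00451). Glycam1, a milk mucin-like gene, fell by 1.50, 1.29 and 1.33 in the 3 groups (adjusted p = 0.00461, 0.037 and 0.0206), and Csn2 differed by -0.82, -1.42 and -1.20 with an SE of 1.0 and passed in none. Cidea, a lipid droplet gene, rose by 1.68 in iFGFR1 from a level of -5.68 in Wnt1 (SE 0.22, adjusted p = 5.16e-05).

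Cebpb was higher in iFGFR1 than in each of the other 3 groups. In iFGFR1 it stood at 1.95, 2.78, 2.38 and 2.37. In Wnt1 it ran from 1.17 to 1.99 with a median of 1.49, in iFGFR2 it stood at 1.26, 1.93, 1.42 and 0.79, and in iR2 at 1.56, 1.59, 1.40 and 1.59. Every iFGFR1 array lay above every iFGFR2 and iR2 array, and 3 of 4 lay above every Wnt1 array. Cebpb rose by 0.83 in iFGFR1 against Wnt1 (SE 0.23, 1.78-fold, adjusted p = 0.0186), and by 0.91 without Wnt1 replicate 3 (adjusted p = 0.0107). In iFGFR2 and iR2 it differed from Wnt1 by -0.19 and -0.01 (adjusted p = 0.683 and 0.993), with intervals of -0.67 to 0.28 and -0.48 to 0.47. The rise ended without iFGFR1 replicate 2 (0.69, adjusted p = 0.0553), after quantile normalization (0.71, adjusted p = 0.0558), after scaling to a common spread (0.61, adjusted p = 0.147) and with the title number as a covariate (0.80, adjusted p = 0.0652).

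Between the receptor groups, with all arrays as deposited, Cebpb was the single member called. It was lower in iFGFR2 than in iFGFR1 by 1.02 (difference -1.02, SE 0.25, adjusted p = 0.0368), where 0.924% of all genes were called lower, and in iR2 the difference from iFGFR1 was -0.83 (SE 0.25, adjusted p = 0.0348), where 6.84% were. The first call ended without iFGFR1 replicate 2, 3 or 4, iFGFR2 replicate 1, 3 or 4 or iR2 replicate 1, 2 or 3 (-1.04 to -0.83, adjusted p from 0.0501 to 0.112), and the second without iFGFR1 replicate 2, 3 or 4 or any 1 of the 4 iR2 arrays (-0.85 to -0.70, adjusted p from 0.0586 to 0.0907). Quantile normalization ended both (-0.94 and -0.74, adjusted p = 0.0778 and 0.083), as did scaling to a common spread (-0.93 and -0.42, adjusted p = 0.167 and 0.368). Array weights, the other prior and a fit of the compared arrays alone ended the first (-1.09, -1.02 and -1.02, adjusted p = 0.055, 0.0504 and 0.221), and the title number ended the second (-0.89, adjusted p = 0.247). Scaling to a common spread instead called Kit in iR2 against iFGFR1 (1.09, adjusted p = 0.00806, from 0.20) and Sox10 in iR2 against iFGFR2 (1.06, adjusted p = 0.0495, from 0.37). Array weights called Stat5a in iR2 against iFGFR2 (-0.77, adjusted p = 0.0424). Groups that did not overlap were Kit and Stat5a higher in iFGFR2 than in iFGFR1 (3.36% of all genes), Xbp1 and Cebpb lower there (2.81%), Cebpb lower in iR2 than in iFGFR1 (13.0%) and Stat5a lower in iR2 than in iFGFR2 (8.68%). In iR2 against iFGFR2 none of the 8 was called by limma, 2 had an unadjusted p under 0.05, and 1.34% of all genes were called. The widest differences were 0.90 for Xbp1 (interval 0.08 to 1.71) and -0.78 for Stat5a (interval -1.35 to -0.21).

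Neutrophils and other myeloid cells also use CEBPB, and the neutrophil list, like Cebpb, was highest in iFGFR1. In iR2 the list was lower than in Wnt1, though the mean of Cebpb was 1.54 in both groups. The 10 neutrophil genes averaged -2.36 to -2.12 on the iFGFR1 arrays, -3.12 to -2.81 in Wnt1, -3.11 to -2.85 in iFGFR2 and -3.73 to -3.35 in iR2. Of the 10, 3 were higher in iFGFR1 than in Wnt1, and S100a8 and S100a9, alarmin genes of neutrophils, rose by 2.56 and 1.59 (SE 0.38 and 0.27, adjusted p = 0.000207 and 0.000752). Camp, a granule peptide gene, fell by 1.15 in iR2 (SE 0.24, adjusted p = 0.00983). The 4 iFGFR1 arrays were the highest of the 18 for this list, and its part in the Cebpb difference was not tested. Of 4 other C/EBP genes none was called in iFGFR1 or iFGFR2 against Wnt1, where 1 each had an unadjusted p under 0.05 by limma, and Cebpg fell in iR2 (by 0.93, adjusted p = 0.0389). When Wnt1 replicate 3 was left out Cebpg was also called in iFGFR2 (-0.86, adjusted p = 0.0457). Cebpd differed from Wnt1 by -0.76, -0.61 and 0.59 (adjusted p = 0.0959, 0.26 and 0.247) and Cebpa by 0.02, 0.33 and 0.53 (adjusted p = 0.956, 0.357 and 0.104). The genes most like Cebpb were Ppp1r14b (r = 0.86), Aldh3a2, Sting1 (0.81 each) and Vmn1r51 (0.79), and the least were Bdnf (-0.89) and Appbp2 (-0.87).

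**Figure D3:**
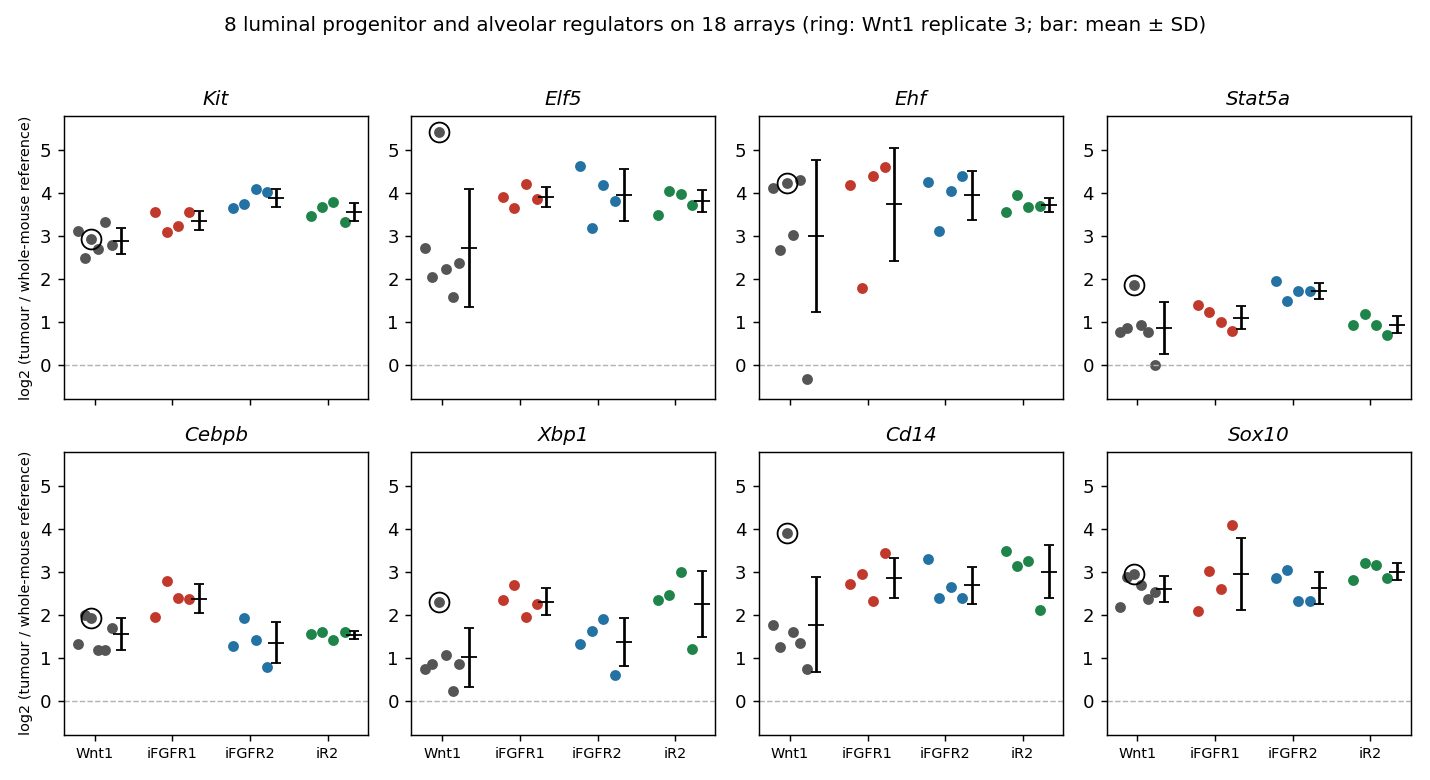
Log2 ratio of tumour to reference (y axis) of each gene on each array, by tumour group, with the mean ± SD beside each group; a ring marks Wnt1 replicate 3 and the dashed line is equal signal. Kit lies higher in iFGFR2 and iR2 than in Wnt1, Cebpb is highest in iFGFR1, Stat5a in iFGFR2, and the ringed array is the highest Wnt1 value of Elf5, Stat5a, Xbp1, Cd14 and, narrowly, Sox10.

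Xbp1 rose in iFGFR1 and iR2. In Wnt1 it stood at 0.74, 0.86, 2.29, 1.06, 0.23 and 0.85. In iFGFR1 it stood at 2.35, 2.70, 1.94 and 2.24, in iR2 at 2.35, 2.46, 3.0 and 1.19, and in iFGFR2 at 1.31, 1.61, 1.91 and 0.60. Wnt1 replicate 3 lay among the receptor arrays, and the other 5 Wnt1 arrays lay below every iFGFR1 and iR2 array and overlapped 1 iFGFR2 array. Xbp1 rose by 1.30 in iFGFR1 (SE 0.36, 2.47-fold, adjusted p = 0.018) and by 1.25 in iR2 (SE 0.36, 2.38-fold, adjusted p = 0.0389). In iFGFR2 it differed by 0.35 (interval -0.39 to 1.10, adjusted p = 0.617). The rises without Wnt1 replicate 3 were 1.56 and 1.51 (SE 0.31 each, adjusted p = 0.00178 and 0.00468), and the iFGFR2 difference was 0.61 (adjusted p = 0.235). The iFGFR1 call ended after scaling to a common spread (1.07, adjusted p = 0.102), and the iR2 call without any other Wnt1 array than replicate 3 or without iR2 replicate 1, 2 or 3 (1.0 to 1.26, adjusted p from 0.0599 to 0.167) and with the title number as a covariate (1.83, adjusted p = 0.277).

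Of 26 genes of the unfolded protein response and XBP1 targets, 4 rose and none fell in iFGFR1, 1 fell in iFGFR2 and 1 rose in iR2, with median differences of 0.16 and -0.02 in iFGFR1 and iR2. With that Wnt1 array (replicate 3) left out, 7 rose in iFGFR1, 1 rose and 1 fell in iFGFR2, and 1 rose in iR2. Ssr1, a subunit of the translocon-associated complex, rose by 1.08 in iFGFR1 (SE 0.19, adjusted p = 0.000855), and Atf4, the stress-response transcription factor, rose by 1.35 in iFGFR1 and 0.88 in iR2 (SE 0.25 each, adjusted p = 0.00147 and 0.0393). Ern1, which encodes the kinase that splices Xbp1 RNA, differed by 0.50, 0.60 and -0.33 and passed in none of the comparisons with Wnt1. The chaperone gene Hspa5 differed by -0.04, 0.06 and -0.24 (adjusted p = 0.915, 0.906 and 0.542). Plasma cells are rich in XBP1, and the 10 plasma and B cell genes averaged -0.36 to 0.17 by array in Wnt1, -0.63 to -0.28 in iFGFR1 and -0.45 to -0.13 in iR2, where Xbp1 was higher. Jchain, a plasma cell gene, differed by -0.69, -0.34 and -0.18 and passed in none (adjusted p = 0.0596, 0.442 and 0.722). Of the 10, 1 rose and 2 fell in iFGFR1: Pou2af1, a B cell coactivator gene, fell by 2.74 (SE 0.46, adjusted p = 0.000549) and Cd79b, a B cell receptor gene, rose by 0.71 (SE 0.18, adjusted p = 0.0131). Their part in the Xbp1 difference was not tested. Golph3 (r = 0.88), Stag2 (0.86), Serinc3 and Macroh2a1 (0.85 each) were most like Xbp1, and Zdhhc21 (-0.90) and Ift20 (-0.85) least.

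Cd14, like Elf5, was higher in the receptor groups than on most Wnt1 arrays. Their r was 0.84 over the 18 arrays and 0.78 after group means were taken out (adjusted permutation p = 0.00028 and 0.216). Both values hold Wnt1 replicate 3. Within iFGFR1 the highest Elf5 value (4.22) and the lowest Cd14 value (2.31) fell on the same array. In Wnt1 Cd14 stood at 1.76, 1.25, 3.91, 1.60, 1.35 and 0.73. In iFGFR1 it stood at 2.72, 2.96, 2.31 and 3.43, in iFGFR2 at 3.30, 2.40, 2.65 and 2.39, and in iR2 at 3.49, 3.14, 3.26 and 2.10. Wnt1 replicate 3 was again the highest of the 18, and the other 5 Wnt1 arrays lay below all 12 receptor arrays. Over all arrays the differences from Wnt1 were 1.09, 0.92 and 1.23 in iFGFR1, iFGFR2 and iR2 (SE 0.44 each, adjusted p = 0.101, 0.24 and 0.0935), and none passed. With all 18 arrays kept, Cd14 passed in iR2 under array weights (1.64, adjusted p = 0.000457) and with a common spread (1.59, adjusted p = 0.043). Cd14 without Wnt1 replicate 3 rose by 1.52, 1.34 and 1.66 (SE 0.29 each; 2.86-fold, 2.54-fold and 3.15-fold; adjusted p = 0.00147, 0.0113 and 0.00185). Between receptor groups it differed by at most 0.31, with an interval of -0.69 to 1.32 for iR2 against iFGFR2.

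None of 12 other genes of the lipopolysaccharide receptor pathway was called against Wnt1 by limma, and 2, 1 and 2 had an unadjusted p under 0.05 in iFGFR1, iFGFR2 and iR2. Tlr4, the receptor that CD14 serves, differed by 0.18, -0.19 and 0.54 (adjusted p = 0.66, 0.698 and 0.17) and Tlr2 by -0.41, 0.12 and 0.51 (adjusted p = 0.158, 0.772 and 0.108). Nfkbia, an inhibitor of NF-kB, differed by -0.38, -0.68 and 0.34 (adjusted p = 0.197, 0.0532 and 0.299). Macrophages also carry CD14. The 12 macrophage genes averaged -0.72 to -0.06 by array in Wnt1, -0.59 to -0.06 in iFGFR1, -0.97 to -0.22 in iFGFR2 and -0.50 to -0.34 in iR2, so no receptor group exceeded the highest Wnt1 array. The macrophage gene Adgre1 had group means of -0.42, -0.78, -0.73 and -0.27, and in iFGFR1 2 of the 12 rose and 1 fell. The complement gene C1qa fell by 0.76 (SE 0.23, adjusted p = 0.0282), while the scavenger receptor gene Msr1 rose by 0.83 (SE 0.26, adjusted p = 0.0356) and the Fc receptor gene Fcgr1 by 0.50 (SE 0.17, adjusted p = 0.0498). Lyz2, a lysozyme gene, differed by -0.84, -0.68 and 0.50 (adjusted p = 0.0936, 0.246 and 0.389). The part of macrophages in the Cd14 difference was not tested. The genes most like Cd14 were Lcn2, a lipocalin gene of the luminal progenitor list, and Sh3bgrl (r = 0.91 each), then Ddx50 and Ubr1 (0.89 each), and the least were Mettl23 and Nebl (-0.90 each).

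Sox10 was above the reference on every array and was not called in any comparison with the arrays as deposited. It ran from 2.17 to 2.95 in Wnt1 with a median of 2.61, and stood at 2.08, 3.01, 2.61 and 4.08 in iFGFR1, 2.86, 3.03, 2.32 and 2.31 in iFGFR2 and 2.81, 3.20, 3.15 and 2.86 in iR2. All groups overlapped, and the highest value was iFGFR1 replicate 4. The differences from Wnt1 were 0.35, 0.03 and 0.41 (SE 0.28 each, adjusted p = 0.444, 0.961 and 0.419), with intervals of -0.25 to 0.94, -0.56 to 0.63 and -0.18 to 1.0. Leaving out Wnt1 replicate 3 gave 0.42, 0.10 and 0.48 (adjusted p = 0.355, 0.868 and 0.323). Of 12 other SOX genes 2 rose in iFGFR1, 1 rose in iFGFR2 and none was called in iR2, where 3 had an unadjusted p under 0.05 by limma and where Sox5 was called without Wnt1 replicate 3 (1.49, adjusted p = 0.0259). Sox5 rose by 1.92 and 1.85 in iFGFR1 and iFGFR2 (SE 0.47 each, adjusted p = 0.0103 and 0.0378), and Sox9, a luminal progenitor factor, differed by 0.47, 0.23 and -0.02 (adjusted p = 0.28, 0.688 and 0.976). Sox13 differed from Wnt1 by -0.42, 0.32 and 0.59 (adjusted p = 0.124, 0.327 and 0.054) and was higher in iR2 than in iFGFR1 by 1.01 (SE 0.20, adjusted p = 0.00281). Genes most like Sox10 were Sufu (r = 0.93), Pja1 (0.88), Zfp37 (0.87) and Trir (0.86), and Kcnk10 (-0.85) and Tnfrsf4 (-0.83) were least like it.

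Schwann cells and melanocytes carry SOX10 as well. The 6 Schwann cell genes measured averaged -0.73 to -0.15 by array in Wnt1 and -1.61 to -0.67 in the receptor groups, and Pmp22, a myelin gene, fell by 1.58 and 1.25 in iFGFR1 and iFGFR2 (SE 0.25 each, adjusted p = 0.000317 and 0.0112). Foxd3, a neural crest factor, fell by 2.99 in iFGFR1 (SE 0.68, adjusted p = 0.00584), and without Wnt1 replicate 3 it fell in all 3 groups (-3.66, -2.07 and -1.43, adjusted p = 1.96e-05, 0.0107 and 0.045). The 8 melanocyte genes averaged -1.39 to -0.62 in Wnt1, -1.35 to -0.85 in iFGFR1, -1.12 to -0.38 in iFGFR2 and -1.13 to 0.23 in iR2, and Dct, an enzyme gene of melanin synthesis, rose by 2.03 in iR2 from -4.19 to -2.16 (SE 0.55, adjusted p = 0.0315). Mitf, the melanocyte transcription factor, fell by 2.42 in iFGFR1 (SE 0.43, adjusted p = 0.000998), and the melanosome gene Pmel rose by 1.31 in iFGFR2 (SE 0.33, adjusted p = 0.0365). The myelin gene Mbp stood at 0.31 on Wnt1 replicate 3 and at most at -2.03 elsewhere. Their part in the Sox10 values was not tested.

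**Figure D4:**
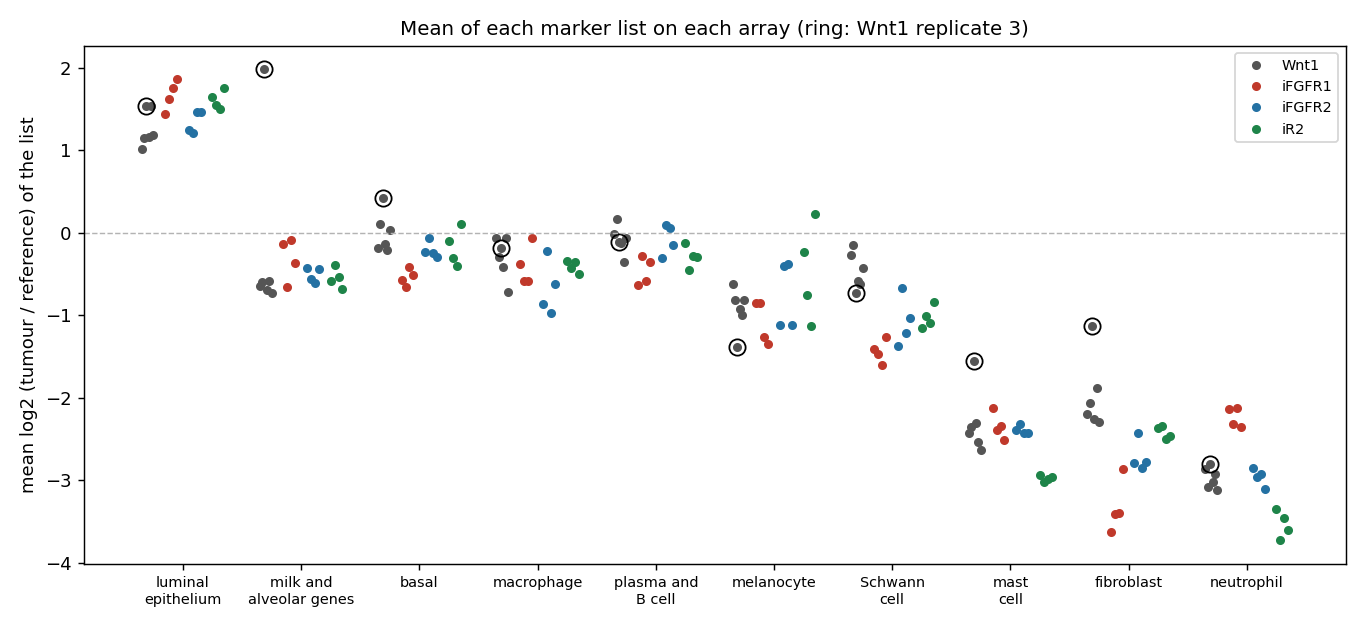
Mean log2 ratio (y axis) of each marker list on each of the 18 arrays, by tumour group in colour; a ring marks Wnt1 replicate 3. That array stands highest for the milk and alveolar, basal, mast cell and fibroblast lists, the 4 iFGFR1 arrays are the lowest for fibroblast genes and highest for neutrophil genes, and the luminal epithelium list is above 0 on every array.

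Genes that mark luminal progenitors went both ways in iFGFR1, and in iFGFR2 and iR2 more of them rose than fell. Of 17 luminal progenitor genes beside the 8, 4 rose and 4 fell in iFGFR1, 3 rose in iFGFR2 and 3 rose and 1 fell in iR2, with median differences of -0.01, 0.62 and 0.68. Among all genes 8.38%, 1.97% and 3.91% were called higher and 7.06%, 1.46% and 3.19% lower, with medians of 0.02, 0.01 and -0.05. Leaving out Wnt1 replicate 3, 6 rose in each group and 4, 0 and 1 fell, with medians of 0.19, 0.47 and 0.70. There 9.95%, 4.70% and 5.68% of all genes were called higher. Prom1, a surface gene that is also on the list of hormone-sensing luminal markers, rose by 2.85, 1.88 and 1.74 (SE 0.25 each, adjusted p = 7.91e-07, 0.00104 and 0.000994) on 4 of 4 arrays of each receptor group. Tspan8, a tetraspanin gene, rose by 1.64 and 2.11 in iFGFR2 and iR2 and differed by -0.49 in iFGFR1 (SE 0.32 each, adjusted p = 0.0112, 0.0017 and 0.325), and Hey1, a Notch target, rose by 3.22 and 2.52 in iFGFR2 and iR2 (SE 0.47 each, adjusted p = 0.00196 and 0.00469). In iFGFR1 Hey1 differed by 1.32 (adjusted p = 0.0613), and by 1.73 without Wnt1 replicate 3 (adjusted p = 0.0026). Aldh1a3, a retinaldehyde dehydrogenase gene of luminal progenitors, fell by 1.78 in iFGFR1 (SE 0.46, adjusted p = 0.0138). Of 13 general luminal genes 6 rose and 2 fell in iFGFR1, with Cldn7, a tight junction gene, up by 1.25 (adjusted p = 0.000485) and the mucin gene Muc1 down by 0.64 (adjusted p = 0.0111). None of the luminal genes was called in iFGFR2, where 1 had an unadjusted p under 0.05 by limma, and 1 rose in iR2. That gene was the keratin Krt18, which rose by 1.17 in iR2 and by 0.97 in iFGFR1 (SE 0.31 each, adjusted p = 0.0251 and 0.0378). The fibroblast list averaged -1.97 ± 0.44 in Wnt1 and -3.33 ± 0.32, -2.71 ± 0.19 and -2.42 ± 0.08 in the receptor groups. Of the luminal epithelium genes, without Wnt1 replicate 3, 5 rose and 1 fell in iFGFR1, 1 rose in iFGFR2 and 3 rose in iR2. The fibroblast genes Pdgfra and Fbln1 fell by 2.61 and 1.83 in iFGFR1 (SE 0.28 and 0.21, adjusted p = 8.33e-06 and 1.55e-05), and Pdgfrb fell by 1.15 there and by 1.19 in iFGFR2 (SE 0.28 each, adjusted p = 0.00859 and 0.0252). Of 13 basal genes 1 rose and 5 fell in iFGFR1, none was called in iFGFR2, where 7 had an unadjusted p under 0.05 by limma, and 1 rose in iR2. Those that fell included Tagln, Krt14 and Snai2 (-1.17, -1.68 and -1.70, adjusted p = 0.000104, 0.00199 and 0.000939). Acta2 rose by 0.92 in iFGFR1 and by 1.28 in iR2 (SE 0.27 each, adjusted p = 0.026 and 0.00962). Without Wnt1 replicate 3, 2 basal genes rose and 1 fell in iFGFR2. The part of these shifts in the members' differences was not tested.

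Some of the 28 pairs of members correlated over the 18 arrays and others did not. Elf5 and Cd14 had the highest correlation over 18 arrays (r = 0.84, rho = 0.70, adjusted permutation p = 0.00028 and 0.0259; the raw p of 1e-05 for r is the smallest that 100000 permutations can give). It was 0.80 without the 2 arrays farthest in Elf5, 0.81 without Wnt1 replicate 3 and 0.78 after group means were taken out (adjusted permutation p = 0.216). The 0.80 and the 0.78 still hold Wnt1 replicate 3, and the 0.81 still holds the differences between groups. The array and the group means were not taken out together. Xbp1 and Cd14 followed (r = 0.78, rho = 0.75, adjusted permutation p = 0.00266 and 0.0112; 0.75 without the 2 arrays farthest in Xbp1 and 0.72 within groups, adjusted permutation p = 0.204). An r with Elf5 as high as that of Cd14 was reached by 0.160% of all genes, and an r with Xbp1 as high as that of Cd14 by 0.113%. Elf5 and Stat5a (r = 0.66, rho = 0.65), Elf5 and Xbp1 (r = 0.64, rho = 0.56) and Cd14 and Stat5a (r = 0.61, rho = 0.54) had adjusted permutation p of 0.0243, 0.0285 and 0.036 for r, and of 0.0404, 0.102 and 0.102 for rho. The 28 values within groups all hold Wnt1 replicate 3, and none passed adjustment. Cd14 and Stat5a fell to 0.34 without the 2 arrays farthest in Cd14. Kit and Sox10 (r = 0.01) and Ehf and Sox10 (r = 0.03) were near 0, and Kit and Cebpb were at -0.28 (adjusted permutation p = 0.394).

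**Figure D5:**
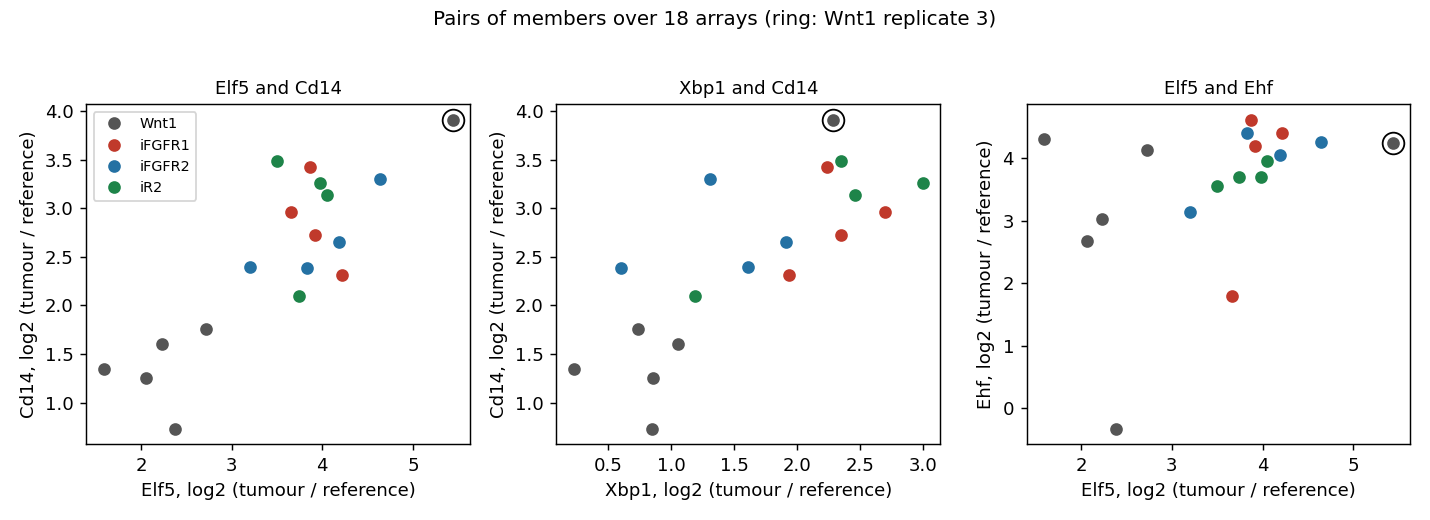
Log2 ratios of pairs of members on the 18 arrays, with groups in colour and a ring around Wnt1 replicate 3. Elf5 and Cd14 rise together (r = 0.84), as do Xbp1 and Cd14 (r = 0.78), and Elf5 and Ehf much less (r = 0.43).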

How the data were processed

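2-colour arrays compared tumour RNA (Cy5) with whole-mouse RNA (Cy3) in 18 samples. The values are log2 ratios of the authors' deposited series table, -9.03 to 7.56, with column medians of -0.02 to 0.01. They were read as tumour over reference from the dyes that the labels give, with 2 taken as the base of the log. The labels used here do not state the scanner, or how the authors normalized the arrays and corrected background. Of its features, 18658 had 1 gene symbol, 30 several and 3887 none, and features of a symbol were averaged, giving 16887 genes. Groups were compared with limma 3.58.1 (R 4.3.3) in 1 fit of all 18 arrays, with Benjamini-Hochberg adjustment over all genes and a threshold of 0.05. The test was checked on simulated data. Pairs of members were tested with 100000 permutations. Python 3.11.15 was used for the rest. Alternatives were quantile normalization, a common spread, array weights, another prior, the title number, the compared arrays alone, a threshold of 0.01 and leaving out each array. The number of arrays limits precision, and p-values measure only the spread between these samples.

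The members, gene lists and tests were chosen with earlier results of these data known. The rule names up to 3 genes of each list, by the smallest F test p past the threshold, its first gene, and for each member the 4 most and 2 least correlated genes with a regular symbol. The T cell, endothelial, adipocyte and hormone-sensing lists are not described as groups. Epcam, Fabp2, Fgb, Csn1s1, Cma1, Adgre1, Mbp, Stat5b, Ptpn11, Shc1, Cebpg, Msr1, Fcgr1 and Acta2 were named after their values were seen.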

Additional observations from a re-analysis of the deposited data

Results flagged for a closer look

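Of 32 sets of a member and a group, 5 held an array whose gap to the next was above Dixon's 95% critical value, and chance gives about 1 in 20. Elf5 and Cd14 stood at 5.44 and 3.91 on Wnt1 replicate 3, above every other array, and milk genes were highest on the same array. Ehf stood at -0.33 on Wnt1 replicate 6, the only Ehf value below the reference, and at 1.79 on iFGFR1 replicate 2. Cebpb stood at 1.40 on iR2 replicate 3 where the other 3 iR2 arrays lay between 1.56 and 1.59, so this gap is small.

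Cebpb differed between receptor groups by limma's test of the difference itself. The difference was -1.02 for iFGFR2 against iFGFR1 (adjusted p = 0.0368, 4 of 4 arrays lower) and -0.83 for iR2 against iFGFR1 (adjusted p = 0.0348, 4 of 4 arrays lower). Neutrophil genes were highest in iFGFR1 as well, and their part in the difference was not tested.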

How the results depend on the processing

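No paired analysis was possible because replicate numbers were given in accession order and pair no samples. Background correction, a filter on dim probes and the slide as a block were not run, since the table holds no intensities, and each member has 1 feature, so the choice of probe leaves it as it is. The cause of the changes given here was not tested. The title numbers of the iR2 samples all lie above the others, so number and iR2 cannot be told apart.

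The members called among 8 changed as follows. For the F test (3) there were 2 with a common spread, 6 with array weights, 1 at 0.01 and 2 to 6 leaving out an array. With weights this test called 6319 of all 16887 genes, against 3311 in the main fit. For iFGFR1 against Wnt1 (2) there were 0 with a common spread, 3 with weights, 1 with the title number, 0 at 0.01 and 1 to 4 leaving out an array. Quantile normalization kept that count at 2 but called Elf5 in place of Cebpb. For iFGFR2 against Wnt1 (1) there were 0 with a common spread, 3 with weights, 2 with the title number and 1 to 4 leaving out an array. For iR2 against Wnt1 (2) there were 1 after quantile normalization or with the other prior, 3 with a common spread, 4 with weights, 0 with the title number or at 0.01 and 0 to 4 leaving out an array. With weights 5207 of all genes were called in this comparison, against 1199 in the main fit. For iFGFR2 against iFGFR1 (1) there were 0 with quantile normalization, common spread, weights, the other prior, the compared arrays alone and at 0.01, and 0 to 1 leaving out an array. For iR2 against iFGFR1 (1) a common spread kept the count at 1 but called Kit in place of Cebpb, and there were 0 with quantile normalization, the title number and at 0.01, and 0 to 1 leaving out an array. For iR2 against iFGFR2 (0) there was 1 with a common spread (Sox10) and 1 with weights (Stat5a). A common spread called 1710 of all genes there, against 227 in the main fit.

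Over all genes the calls against Wnt1 ranged from 1023 (threshold 0.01) to 3084 (without Wnt1 replicate 3, main 2608) for iFGFR1. They ranged from 82 (threshold 0.01) to 1470 (without iFGFR2 replicate 2, main 579) for iFGFR2 and from 52 (title number) to 5207 (weights, main 1199) for iR2. For iFGFR2 against iFGFR1 they ranged from 71 (the compared arrays alone) to 530 (without iFGFR1 replicate 2, main 360). They ranged from 265 (title number) to 3375 (common spread, main 1968) for iR2 against iFGFR1. For iR2 against iFGFR2 the range was 2 (title number) to 1710 (common spread, main 227). The F test called from 1139 (threshold 0.01) to 6319 (weights, main 3311).

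Differences changed sign only where neither value passed. With a common spread they were -0.26 for Sox10 in iFGFR2 and 0.19 for Cebpb in iR2 against Wnt1, 0.87, 1.02, 0.48 and 0.06 for Elf5, Ehf, Xbp1 and Stat5a in iR2 against iFGFR1, and 0.54, 0.81 and 0.70 for Kit, Elf5 and Ehf in iR2 against iFGFR2. With array weights they were -0.06 for Sox10 in iFGFR2 and 0.09 for Cebpb in iR2 against Wnt1, -0.02 for Elf5 in iFGFR2 and 0.07 for Xbp1 in iR2 against iFGFR1. With the title number they were -0.07 for Sox10 in iFGFR2 against Wnt1, -0.004 for Elf5 in iFGFR2 against iFGFR1, 0.36, 1.42, 0.32, 0.50 and -0.18 for Elf5, Ehf, Xbp1, Stat5a and Sox10 in iR2 against iFGFR1, and 0.36 and 1.37 for Elf5 and Ehf in iR2 against iFGFR2. Quantile normalization gave 0.02 and 0.08 for Elf5 and Xbp1 in iR2 against iFGFR1.

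Leaving out an array gave, for iFGFR2 against iFGFR1, -0.38 to 0.02 for Cd14, -0.45 to 0.49 for Ehf, -0.18 to 0.30 for Elf5 and -0.60 to 0.06 for Sox10. For iR2 against iFGFR1 it gave -0.04 to 0.44 for Cd14, -0.68 to 0.26 for Ehf, -0.19 to 0.01 for Elf5, -0.23 to 0.44 for Sox10 and -0.31 to 0.30 for Xbp1. For iR2 against iFGFR2 it gave -0.002 to 0.38 for Cebpb and -0.40 to 0.08 for Elf5. Against Wnt1 it gave -0.03 to 0.64 for Sox10 in iFGFR1, -0.10 to 0.14 for Sox10 in iFGFR2, and -0.08 to 0.08 for Cebpb and -0.10 to 0.27 for Stat5a in iR2.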
